A study of Mus musculus with 7 samples.

Results

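The 4 genes described here encode angiogenin (Ang), the neighbouring secreted ribonuclease Rnase4, the ribonuclease inhibitor (Rnh1) and plexin B2 (Plxnb2). They were taken by name as 4 of the 56980 rows of a table of gene levels, and all 4 passed the filter on low values. RNA had been sequenced from the myocardium of 7 male mice of the inbred strain C57BL/6J, which the labels give as wild type and which were 8 weeks old when obtained. In 3 of them (MI mice) the left coronary artery had been ligated to cause a myocardial infarction 4 days earlier, and 4 underwent sham surgery. No mouse carried a transgene or received a drug according to the labels, and 1 library was made per mouse.

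Angiogenin is a secreted ribonuclease of the RNase A superfamily that promotes the growth of blood vessels. It is taken up by cells, cleaves transfer RNAs under stress, and in growing cells reaches the nucleolus and promotes transcription of ribosomal RNA. Plexin B2 is a receptor through which angiogenin enters and signals in cells, and the ribonuclease inhibitor binds secreted ribonucleases of this family in the cytosol with very high affinity and blocks them. Rnase4 is a ribonuclease of the same family that prefers uridine at its cleavage site, and its gene shares a locus and upstream exons with Ang.

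The libraries held 19977733 to 23473446 fragments in the sham-operated mice and 21781043 to 23610907 in the MI mice. The cardiomyocyte markers were abundant in every library, with a summed level of 8 markers of 13686 to 15002 FPKM in the sham-operated mice. The FPKM is the number of fragments counted on a gene scaled by its length and by the depth of the library. The MI mice were not alike. The cardiomyocyte sum was 9090 FPKM in MI replicate 1, 13753 in replicate 2 and 9644 in replicate 3, and mitochondrial genes held 13.6%, 28.2% and 14.9% of the fragments, against 26.5% to 27.4% in the sham-operated mice. MI replicate 2 thus stood near the sham-operated mice on both measures, and the calls of the 4 genes and their ratios are given with and without it. In these whole-tissue samples, fewer cells of a type and less RNA per cell cannot be told apart.

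Ang and Rnase4 lie on the plus strand of chromosome 14 (GRCm38, GENCODE M21), Ang at chr14:51091150-51102009 and Rnase4 at chr14:51091077-51106151. Each has 3 merged exons. The first 2 exons of both genes overlap over 219 bases, which is 18.2% of the 1202 exon bases of Ang and 13.4% of the 1637 exon bases of Rnase4. The third exons are separate and hold the coding sequences, 435 of 624 bases for Ang and 444 of 1345 bases for Rnase4. A fragment within the shared exon bases can therefore come from either transcript.

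**Figure D1:**
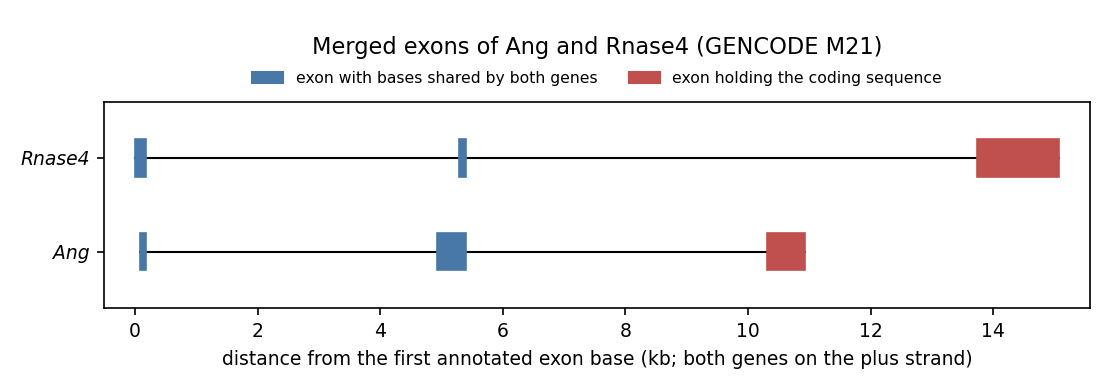
Merged exons of Rnase4 and Ang drawn to scale along the distance in kb from the first annotated exon base, with blue exons holding the 219 bases shared by both genes and red exons holding the coding sequences. The shared exons lie at the start of both genes and the coding exons lie apart, at 10.3 to 10.9 kb for Ang and 13.7 to 15.1 kb for Rnase4.

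Rnh1 lies on the minus strand at chr7:141160326-141172857 and Plxnb2 on the minus strand at chr15:89155549-89180788. No other gene of the annotation overlapped Rnh1, and the microRNA gene Mir7118 lies within Plxnb2 without sharing an exon base. The members' promoters are printed because the first promoter window listed by RefSeq for Ang and for Rnase4 is 1 and the same sequence, whereas the inhibitor and the receptor have windows of their own. Each line gives the 250 bases before the first start site that RefSeq lists (GRCm38.p6), 5′ to 3′ on the strand of the gene, at chr14:51090827-51091076 for the shared window, chr7:141172852-141173101 for Rnh1 and chr15:89180789-89181038 for Plxnb2. Capitals mark matches to any of 5 motifs searched on both strands.
Ang and Rnase4, shared window: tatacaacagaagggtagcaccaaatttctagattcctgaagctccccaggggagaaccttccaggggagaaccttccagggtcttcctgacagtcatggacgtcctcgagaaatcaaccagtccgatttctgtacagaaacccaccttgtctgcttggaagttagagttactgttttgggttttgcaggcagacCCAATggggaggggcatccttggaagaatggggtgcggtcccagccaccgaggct
Rnh1: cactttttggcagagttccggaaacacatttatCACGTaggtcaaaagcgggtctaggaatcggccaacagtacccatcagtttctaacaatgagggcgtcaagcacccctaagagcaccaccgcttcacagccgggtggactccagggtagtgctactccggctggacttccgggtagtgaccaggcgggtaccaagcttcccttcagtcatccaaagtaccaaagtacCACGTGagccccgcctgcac
Plxnb2: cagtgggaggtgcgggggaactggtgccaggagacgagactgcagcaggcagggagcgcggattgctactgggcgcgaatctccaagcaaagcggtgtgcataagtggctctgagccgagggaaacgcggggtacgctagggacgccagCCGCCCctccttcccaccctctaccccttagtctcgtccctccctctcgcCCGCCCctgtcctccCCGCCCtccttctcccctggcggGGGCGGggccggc

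The motifs were the TATA box (TATAAA), the CCAAT box (CCAAT), the GC box (GGGCGG), the AP-1 site (TGANTCA) and the core of the hypoxia response element (ACGTG or GCGTG). The shared window of Ang and Rnase4 held 1 match, a CCAAT box 55 to 51 bases before the start, and 33.8% of all 32817 windows hold that motif. The Rnh1 window held 3 matches to the hypoxia core, of which the last 2 overlap on opposite strands, and 38.6% of windows hold one. The Plxnb2 window held 4 GC boxes, a motif in 32.7% of windows, and its GC content of 69.2% was above that of 89.6% of windows, against 52.4% for the shared window. TATA boxes (in 12.4% of windows) and AP-1 sites (6.75%) had no match in these 3 windows. A match describes letters and not a bound site. Only 34 of the 32817 windows (0.104%) are listed for more than 1 gene. RefSeq lists further starts for 3 of the genes. The second window of Rnase4 (chr14:51095750-51095999) held no match to the 5 motifs, the second of Rnh1 (chr7:141168937-141169186) a TATA box, the third of Rnh1 (chr7:141168687-141168936) 3 GC boxes and an AP-1 site, and the second of Plxnb2 (chr15:89173952-89174201) 3 GC boxes.

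Ang was at a low level in every sham-operated heart and above that level in every MI heart. It measured 1.20, 1.21, 1.10 and 1.35 FPKM in sham replicates 1 to 4. In the MI mice it measured 4.76 FPKM in replicate 1, 1.58 in replicate 2 and 4.07 in replicate 3. The groups did not overlap, but MI replicate 2 lay close to the highest sham-operated mouse, whereas replicates 1 and 3 lay at 3.92 and 3.35 times the sham mean. The means were 1.21 ± 0.102 FPKM (SD, n = 4) and 3.47 ± 1.68 FPKM (SD, n = 3), a ratio of 2.86. These levels rest on few fragments, 47 to 49 per library in the sham-operated mice and 65 to 189 in the MI mice.

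Rnase4 was about an order of magnitude more abundant than Ang per length and put the MI mice in the same order. Its level was 12.6, 11.6, 12.8 and 13.1 FPKM in sham replicates 1 to 4 and 46.9, 16.7 and 43.2 FPKM in MI replicates 1 to 3. Every MI heart again lay above every sham-operated heart, with replicate 2 nearest to them at 1.34 times the sham mean. The means were 12.5 ± 0.654 FPKM (SD, n = 4) and 35.6 ± 16.5 FPKM (SD, n = 3), a ratio of 2.84. Rnase4 was counted on 749 to 897 fragments per library in the sham-operated mice and on 1128 to 3043 in the MI mice.

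Rnh1, the intracellular inhibitor of both enzymes, was at 16.5, 18.0, 16.7 and 15.3 FPKM in sham replicates 1 to 4. It was at 33.3, 15.2 and 32.8 FPKM in MI replicates 1 to 3. Replicate 2 was below all 4 sham-operated mice, and replicates 1 and 3 were at 2.01 and 1.97 times the sham mean, so the groups overlapped. The means were 16.6 ± 1.11 FPKM (SD, n = 4) and 27.1 ± 10.3 FPKM (SD, n = 3), a ratio of 1.63.

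Plxnb2, the receptor, was at 13.4, 14.2, 15.4 and 15.0 FPKM in sham replicates 1 to 4 and at 26.2, 13.5 and 25.3 FPKM in MI replicates 1 to 3. MI replicate 2 lay within the range of the sham-operated mice, and the other 2 MI mice lay at 1.81 and 1.75 times the sham mean. The means were 14.5 ± 0.884 FPKM (SD, n = 4) and 21.7 ± 7.05 FPKM (SD, n = 3), a ratio of 1.50. With 900 to 2283 fragments per library for Rnh1 and 3097 to 6177 for Plxnb2, counting error was smaller for these genes than for Ang.

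**Figure D2:**
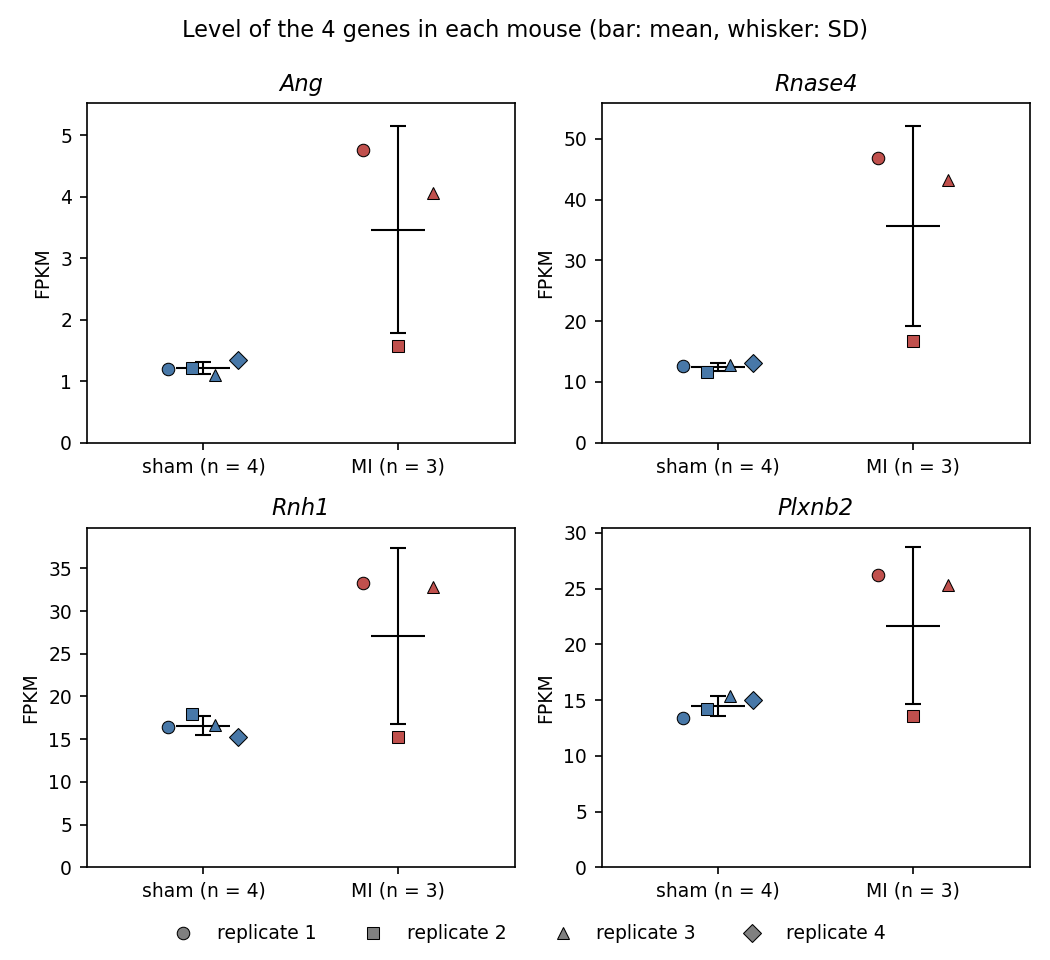
FPKM of Ang, Rnase4, Rnh1 and Plxnb2 (linear axes from 0, a scale per gene) in each of 4 sham-operated (blue) and 3 MI mice (red), with marker shapes for replicates, bars for means and whiskers for SD. MI replicates 1 and 3 are above all sham-operated mice for the 4 genes, and replicate 2 is close to them, at 1.58 FPKM for Ang, 16.7 for Rnase4, 15.2 for Rnh1 and 13.5 for Plxnb2.

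None of the 4 genes passed the test with all 7 mice. Differences were tested with limma on log2(FPKM + 1), a scale that understates the change of a gene as low as Ang, with Benjamini-Hochberg adjustment over 11431 genes. Of the 11431, 0.0175% were called higher, 0.00875% lower and 0.0262% in either direction. Rnase4 had the largest difference of the 4, 1.31 higher in the MI mice (SE 0.33, 95% interval 0.54 to 2.08, limma adjusted p = 0.108), and 2.91% of the tested genes had a larger one. Ang differed by 0.93 (SE 0.26, interval 0.32 to 1.54, limma adjusted p = 0.108). The exact permutation test over the 35 splits of the mice was made two-sided by doubling the share of splits. This exact permutation test gave p = 0.0571 for Ang and for Rnase4, the smallest that doubling allows for 4 against 3 mice.

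The inhibitor and the receptor differed by less. On the same scale Rnh1 was 0.60 higher (SE 0.26, interval -0.01 to 1.21, limma adjusted p = 0.131, exact permutation p = 0.286). Plxnb2 was 0.50 higher (SE 0.22, interval -0.02 to 1.01, limma adjusted p = 0.133, exact permutation p = 0.229). The median of all tested genes was itself 0.21 higher in the MI mice, and relative to that median the differences were 0.72 for Ang, 1.10 for Rnase4, 0.39 for Rnh1 and 0.29 for Plxnb2. At an unadjusted p under 0.05, Ang and Rnase4 passed in limma and Rnh1 and Plxnb2 did not. Of all tested genes 39.3% passed that mark, 29.5% as higher and 9.85% as lower. Complete separation of the groups with the MI mice above, seen for 2 of the 4 genes, was found for 16.1% of all tested genes.

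Leaving out MI replicate 2 changed the call for all 4 genes. The differences were then 1.29 for Ang (limma adjusted p = 2.02e-05), 1.77 for Rnase4 (4.00e-06), 0.95 for Rnh1 (4.14e-05) and 0.79 for Plxnb2 (7.71e-05). In that comparison, however, 57.0% of all tested genes were called higher and 14.7% lower, so the call was shared by most genes. The order of the 4 differences, from Rnase4 through Ang and Rnh1 to Plxnb2, was the same with and without this mouse on the log2(FPKM + 1) scale.

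Within a heart, Ang and Rnase4 kept a nearly constant ratio. The FPKM of Ang divided by that of Rnase4 was 0.0953, 0.105, 0.0856 and 0.103 in sham replicates 1 to 4 and 0.102, 0.0942 and 0.0942 in MI replicates 1 to 3. The groups overlapped, with means of 0.0971 ± 0.00867 (SD, n = 4) and 0.0966 ± 0.00422 (SD, n = 3), and the mean log2 ratio differed by -0.0037 (exact permutation p = 0.857, adjusted p = 0.857 over 6 pairs of genes). It differed by 0.01, with the sign turned, without MI replicate 2. The larger difference of Rnase4 on the log2(FPKM + 1) scale therefore went with the added 1: on that scale the gap between the genes was -0.38 (exact permutation p = 0.0571, adjusted p = 0.0686), and it was -0.06 with 0.1 added instead.

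The constant ratio has to be read beside the shared exons. Fragments counted on Ang amounted to 5.83%, 6.41%, 5.24% and 6.29% of those counted on Rnase4 in sham replicates 1 to 4 and to 6.21%, 5.76% and 5.77% in MI replicates 1 to 3. The shared bases make up 13.4% of the merged exon bases of Rnase4, and how fragments in them were assigned is not given in the sources used here. How many of the fragments counted on Ang came from Rnase4 transcripts was not tested. The lengths behind the FPKM values, 1822 bases for Ang and 2978 for Rnase4, equal the sum of both annotated transcripts of each gene and not the merged exons. Per merged exon base, Ang was 0.0714 to 0.0873 times as abundant as Rnase4 over the 7 mice.

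The ratio of each ribonuclease to the inhibitor did not overlap between the groups, a difference that missed the adjusted threshold. The ratio of Rnase4 to Rnh1 was 0.764, 0.645, 0.771 and 0.858 in sham replicates 1 to 4 and 1.41, 1.10 and 1.32 in MI replicates 1 to 3. All 3 MI hearts, replicate 2 included, lay above all 4 sham-operated hearts, with means of 0.759 ± 0.0874 (SD, n = 4) and 1.28 ± 0.159 (SD, n = 3). The ratio of Ang to Rnh1 was 0.0660 to 0.0882 in the sham-operated hearts and 0.143, 0.104 and 0.124 in the MI hearts, again without overlap.

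Next the receptor was compared. Rnase4 to Plxnb2 was 0.940, 0.819, 0.836 and 0.874 in sham replicates 1 to 4 and 1.79, 1.24 and 1.71 in MI replicates 1 to 3. Ang to Plxnb2 was 0.0716 to 0.0899 in the sham-operated hearts and 0.116 to 0.182 in the MI hearts. For each of these 4 pairs of a ribonuclease and a partner the groups did not overlap, and the mean log2 ratio was 0.74 to 0.85 higher in the MI hearts. Of all tested genes taken in the same way, 7.36% had a higher ratio to Rnh1, and 7.94% to Plxnb2, in every MI heart than in every sham-operated heart. The exact permutation test gave p = 0.0571 for each of the 4 pairs, the smallest that the doubled share of splits allows. Adjusted over the 6 pairs, the exact permutation p was 0.0857 on the ratio scale and 0.0686 on the log2(FPKM + 1) scale. None of the 4 pairs passed 0.05. The sixth pair, Rnh1 to Plxnb2, overlapped, at 1.15 ± 0.119 (SD, n = 4) in the sham-operated hearts and 1.23 ± 0.0928 (SD, n = 3) in the MI hearts (log2 ratio 0.10 higher, exact permutation p = 0.286). These pairs share genes and are not independent of each other. Without MI replicate 2 the mean log2 ratios of the 4 pairs were 0.85 to 1.03 higher in the MI hearts. The differences were then 0.33 to 0.98 on the log2(FPKM + 1) scale. With the share of splits doubled, the exact permutation test of 4 against 2 mice could not give an adjusted p below 0.133. For Rnh1 to Plxnb2 the mean log2 ratio was then 0.16 higher. Both remaining MI hearts, at 1.272 and 1.296, lay just above the highest sham-operated heart, at 1.269 (exact permutation p = 0.133, adjusted p = 0.16).

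**Figure D3:**
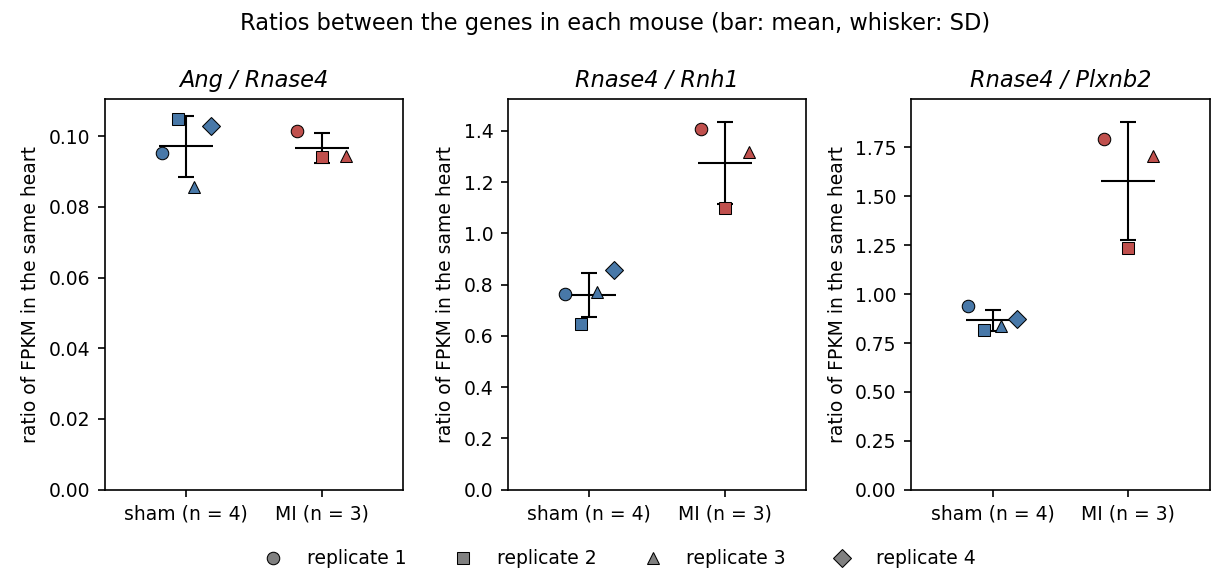
Ratios of FPKM within each heart for Ang to Rnase4, Rnase4 to Rnh1 and Rnase4 to Plxnb2 (linear axes from 0) in 4 sham-operated (blue) and 3 MI mice (red), with bars for means and whiskers for SD. The first ratio overlaps between the groups at about 0.1, and in the other 2 panels all MI hearts, replicate 2 included, are above all sham-operated hearts.

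Other members of the RNase A superfamily were scarce. Of the 20 genes of the list, 11 were above 0 in any mouse and 9, Ang2, Ang4, Ang5, Ang6, Rnase9, Rnase11, Rnase13, Ear10 and Ear14, were listed at 0 in every mouse. Only Ang and Rnase4 passed the filter on low values, which asked for 3 or more mice at an FPKM of 1 or above, and the median of those 2 is set by these genes. Rnase1, the pancreatic-type enzyme also made by endothelium, was counted on 3 to 7 fragments in the sham-operated mice and on 6 to 8 in the MI mice. Rnase6, which is made by monocytes and macrophages, had 4, 7, 4 and 7 fragments in sham replicates 1 to 4 and 104, 6 and 19 in MI replicates 1 to 3. Ear2, an eosinophil-associated ribonuclease that is also found in macrophages, had 2 to 4 fragments in the sham-operated mice and 54, 1 and 17 in the MI mice, and its near-identical relative Ear1 had 0 in every sham-operated mouse and 28, 0 and 1 in the MI mice. For these 3 genes MI replicate 1 was highest, and MI replicate 2 was within or below the sham-operated mice. Reads of the closely similar Ear genes may be divided uncertainly among them.

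Among the 6 ribonucleases of other families, 4 were tested, 0 passed the adjusted test, and 2 were higher and 0 lower at an unadjusted p under 0.05, beside 29.5% and 9.85% of all tested genes. Their median difference was 0.25, against 0.21 for all tested genes. Zc3h12a (regnase-1), which degrades messenger RNAs of cytokines, was at 1.73 ± 0.282 FPKM (SD, n = 4) and 3.75 ± 2.04 FPKM (SD, n = 3), with overlap. Ern1, the stress sensor of the endoplasmic reticulum, was at 1.79 ± 0.189 and 2.63 ± 0.554 FPKM, and all 3 MI mice were above the sham-operated mice. The lysosomal enzymes Rnaset2a and Rnaset2b, near-identical copies whose reads are hard to divide, differed by 0.13 and 0.12, both of which turned negative under quantile normalization and median log-ratio scaling. Without MI replicate 2, 3 of the 4 tested genes were called higher and 0 lower, against 57.0% and 14.7% of all tested genes.

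Of 7 proteins reported to bind angiogenin, Rnh1 and Plxnb2 included, 6 were tested and 0 passed the adjusted test. Egfr, the epidermal growth factor receptor, reached the filter only through the MI mice, so it is left out of the counts. Of the other 5, 2 were higher and 0 lower at an unadjusted p under 0.05, a mark that 29.5% of all tested genes passed as higher, and their median difference was 0.60, against 0.21 over all tested genes. Fbln1, a matrix glycoprotein, differed by 1.77 (SE 0.42, limma adjusted p = 0.108), with 16.2 to 19.1 FPKM in the sham-operated mice and 101, 27.0 and 87.2 FPKM in MI replicates 1 to 3. Egfr was at 0.594 to 0.775 FPKM in the sham-operated mice and at 4.68, 1.01 and 2.76 FPKM in the MI mice. MI replicate 2 was the lowest MI heart for both genes. For Fbln1 every MI heart was above every sham-operated heart, and for Egfr, with all sham-operated mice under an FPKM of 1, the filter itself required that. Sdc4, a cell-surface heparan sulfate proteoglycan, was at 4.91 to 7.65 FPKM in the sham-operated mice and at 28.3, 6.22 and 20.1 in the MI mice. Actn2, the alpha-actinin of the sarcomeric Z-disc, was the most abundant, at 330 ± 11.0 FPKM (SD, n = 4) and 290 ± 58.4 FPKM (SD, n = 3), and differed by -0.20. Fst (follistatin) did not pass the filter on low values, with 7 to 13 fragments in the sham-operated mice and 258, 5 and 198 in the MI mice. Without MI replicate 2, 4 of the 5 were called higher and 1, Actn2, lower, against 57.0% and 14.7% of all tested genes.

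Of the 9 plexins, the family of semaphorin receptors to which Plxnb2 belongs, 6 were tested and 0 passed the adjusted test, with a median difference of 0.14, against 0.21 for all tested genes. At an unadjusted p under 0.05, 1 was higher and 1 lower, beside 29.5% and 9.85% of all tested genes. Plxnb1, another B-type plexin and the receptor for Sema4d, stood in the opposite direction to Plxnb2. It was at 7.15, 6.69, 6.05 and 7.11 FPKM in sham replicates 1 to 4 and at 2.94, 5.62 and 3.17 FPKM in MI replicates 1 to 3. Every MI heart was below every sham-operated heart, which held for 9.0% of all tested genes, and the difference was -0.70 (SE 0.19, limma adjusted p = 0.108). Plxnb3 was below the filter on low values, with 78 to 127 fragments in the sham-operated mice and 68, 80 and 53 in the MI mice. Plxnd1, which is prominent in endothelium, was the most abundant plexin per length, at 25.6 ± 1.43 FPKM (SD, n = 4) and 27.8 ± 6.39 FPKM (SD, n = 3), and its difference of 0.09 turned negative under quantile normalization and median log-ratio scaling. With MI replicate 2 left out, 4 plexins were called higher and 1, Plxnb1, lower, against 57.0% and 14.7% of all tested genes.

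Of 6 class 4 semaphorins, the family that holds ligands of B-type plexins, 3 were tested, with a median difference of 0.20 and 0 past an unadjusted p of 0.05 in either direction, a mark passed by 39.3% of all tested genes. Sema4d was at 3.89 ± 0.145 FPKM (SD, n = 4) and 4.63 ± 0.403 FPKM (SD, n = 3) with every MI heart above, and its difference of 0.20 turned negative under quantile normalization and median log-ratio scaling. Sema4c, a ligand of Plxnb2, was at 2.59 ± 0.158 and 4.15 ± 1.89 FPKM, with overlap. Among 6 genes of plexin-B signalling, 4 were tested, with a median difference of 0.34, against 0.21 for all tested genes, and 3 were higher and 0 lower at an unadjusted p under 0.05, beside 29.5% and 9.85% of all tested genes. The small GTPase Rhoa was at 24.3 ± 0.482 and 34.3 ± 8.86 FPKM, and the receptor kinase Erbb2 was at 1.64 ± 0.0647 and 2.69 ± 0.947 FPKM, both with overlap. Arhgef12, an exchange factor for RhoA, was at 12.4 ± 0.318 and 14.8 ± 0.549 FPKM with no overlap, and its difference of 0.24 turned negative under quantile normalization. None of these genes passed the adjusted limma test with all 7 mice. Without MI replicate 2 the test called 2 semaphorins and 4 signalling genes higher and 0 lower, against 57.0% and 14.7% of all tested genes.

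Of 7 genes for the protection of transfer RNAs and for stress granules, 6 were tested, with a median difference of 0.13, against 0.21 for all tested genes, and 2 were higher and 0 lower at an unadjusted p under 0.05, beside 29.5% and 9.85% of all tested genes. Nsun2, which methylates transfer RNAs, was at 5.72 ± 0.390 FPKM (SD, n = 4) and 7.24 ± 0.931 FPKM (SD, n = 3) with every MI heart above. Trdmt1, another transfer RNA methyltransferase, was at 1.85 ± 0.108 and 1.63 ± 0.241 FPKM, and its difference of -0.12 turned positive after rescaling to TPM. With MI replicate 2 left out, 3 of the 6 were called higher and 0 lower, against 57.0% and 14.7% of all tested genes.

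Of 18 genes of ribosomal RNA transcription and the nucleolus, 17 were tested and 0 passed the adjusted test, with a median difference of 0.28, against 0.21 for all tested genes. The sign of 9 of the 17 differences turned under another scaling, that of the median gene Fbl under quantile normalization. At an unadjusted p under 0.05, 6 were higher and 0 lower, beside 29.5% and 9.85% of all tested genes. Npm1 (nucleophosmin), a nucleolar protein, was at 14.8 to 18.2 FPKM in the sham-operated mice and at 29.8 ± 9.22 FPKM (SD, n = 3) in the MI mice, lowest in replicate 2. Ncl (nucleolin) was at 15.0 to 16.8 FPKM in the sham-operated mice and at 22.5, 18.2 and 21.3 FPKM in the MI mice, so that both genes were higher in every MI heart. The largest subunit of RNA polymerase I, Polr1a, was at 4.28 ± 0.158 and 3.49 ± 0.523 FPKM with every MI heart below, a difference of -0.24. Rrn3, which brings the polymerase to the ribosomal gene promoter, was at 12.9 ± 0.143 and 11.4 ± 0.362 FPKM with every MI heart below, and its difference of -0.17 turned positive after rescaling to TPM. Without MI replicate 2, 12 of the 17 were called higher and 2, Polr1a and Rrn3, lower, against 57.0% and 14.7% of all tested genes.

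**Figure D4:**
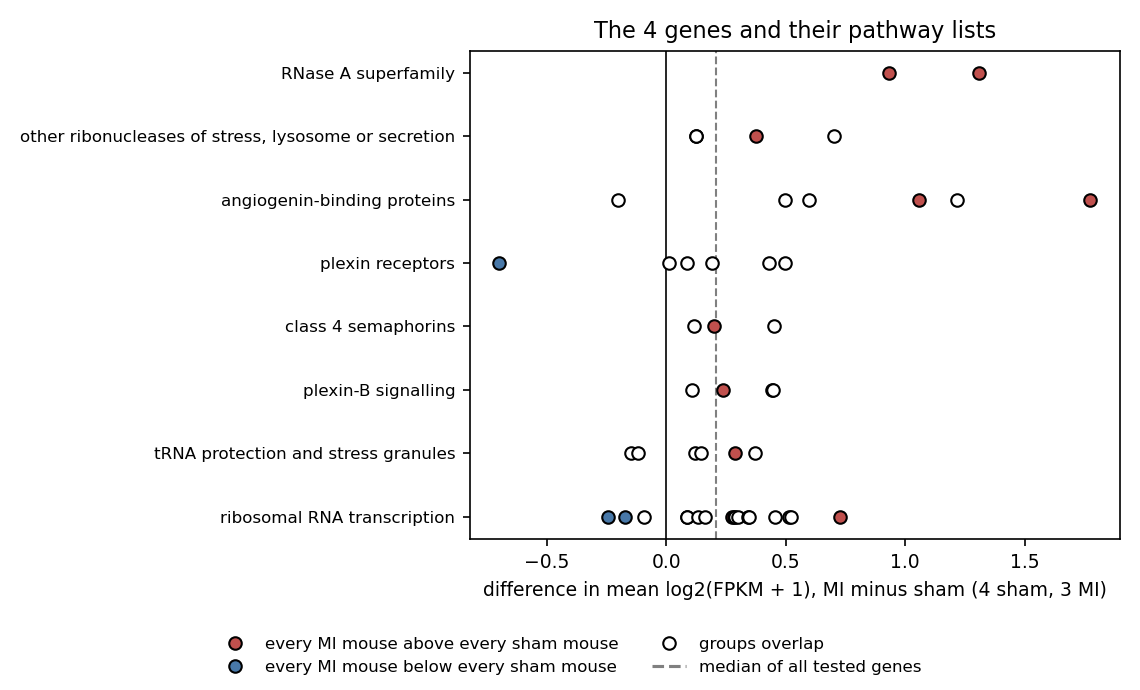
Difference in mean log2(FPKM + 1), MI minus sham, of each tested gene in 8 lists, with filled points where the groups of 4 sham-operated and 3 MI mice do not overlap and a dashed line at the median of all tested genes, 0.21. Rnase4 at 1.31 and Fbln1 at 1.77 are farthest to the right and Plxnb1 at -0.70 farthest to the left. Several genes with differences of up to 0.29 changed sign under another scaling, 9 of them in the list of ribosomal RNA transcription.

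The summed markers of fibroblasts, macrophages, neutrophils, lymphocytes, eosinophils and hepatocytes put the MI hearts in the same order as Ang and Rnase4, with replicate 1 highest and replicate 2 lowest. The summed level of 8 fibroblast markers was 155 to 183 FPKM in the sham-operated mice and 2649, 279 and 2080 FPKM in MI replicates 1 to 3, and all 8 were above the sham-operated mice in every MI mouse, as 16.1% of all tested genes were. The sum of 8 macrophage markers was 200 to 254 FPKM in the sham-operated mice and 1327, 242 and 1139 FPKM in the MI mice, with 3 of the 8 separating the groups. MI replicate 2 was above the sham-operated mice for the fibroblast sum and within their range for the macrophage sum. The part of either in the differences of Ang, Rnase4, Rnh1 and Plxnb2 was not tested.

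The endothelial sum of 7 markers was 127 to 146 FPKM in the sham-operated mice and 157, 119 and 172 in MI replicates 1 to 3. Smooth muscle and pericyte markers summed to 210 to 250 FPKM and to 338, 215 and 377 FPKM. Neutrophil markers, with Ly6g at 0 in every mouse, summed to 0.300 to 1.27 FPKM and to 13.6, 0.485 and 7.25 FPKM, lymphocyte markers to 0.607 to 0.737 and to 27.8, 0.603 and 4.99 FPKM. Adipocyte markers summed to 0.184 to 0.773 FPKM in the sham-operated mice and to 87.5, 0.175 and 263 FPKM in the MI mice, and mesothelial markers to 2.93 to 6.88 and to 16.3, 13.0 and 25.6 FPKM. Hepatocytes are a major source of angiogenin and Rnase4 in the body, and the hepatocyte sum of 4 markers was 1.20, 0.948, 0.244 and 5.78 FPKM in sham replicates 1 to 4 and 4.28, 0.824 and 1.34 FPKM in the MI mice. Sham replicate 4 also held the highest Ang and Rnase4 levels of the sham-operated mice, and the part of hepatocyte RNA in them was not tested. Eosinophil markers, with Epx at 0 in every mouse, summed to no more than 0.358 FPKM in any mouse.

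Of 40 genes of the table within 300 kb of Ang, 24 were above 0 in any mouse and 12 were tested, Ang and Rnase4 among them. The other 10 tested genes all lie before Ang, and their median difference was 0.22, close to the 0.21 of all tested genes. A larger difference than that of Ang was seen for 2 of them, and than that of Rnase4 for 1. Of these 10, 4 were higher and 0 lower at an unadjusted p under 0.05, beside 29.5% and 9.85% of all tested genes, and 3 separated the groups with the MI mice above, beside 16.1%. Without MI replicate 2 the median of the 10 was 0.37, against 0.33 for all tested genes, and 6 were called higher and 2 lower, beside 57.0% and 14.7%. Pnp, which cleaves purine nucleosides, was at 3.47 FPKM on average in the sham-operated and 10.9 FPKM in the MI mice, a difference of 1.27. Rpph1, the RNA component of ribonuclease P, had a mean of 1.76 FPKM in the sham-operated mice and reached 27.9, 10.2 and 3.85 FPKM in the 3 MI mice in order, an order of MI mice unlike that of Ang. Tep1, Rpph1 and Pnp had every MI heart above every sham-operated heart, while Osgep and Parp2 differed by -0.02 and 0.19 with overlap. Beyond the end of Rnase4, on the other side of the window, no tested gene lies.

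For each gene, the genes with the most similar pattern were ranked among 9748 protein-coding genes by the root mean square difference of centred log2(FPKM + 1) over the 7 mice. The closest to Ang were Gng10, at 0.0415, Gja4, Os9 and Yipf5. The closest to Rnase4 were Tgfbr1, at 0.0409, Lrp1, Bicc1, Chst12 and Clec2d. The closest to Rnh1 were Selenow, at 0.0305, Sec24d, Rps28, Gm11361 and Nme1, and the closest to Plxnb2 were Sae1, at 0.0411, Tmem59, Klhl5, Cdk4 and Ppp2cb. None of the 4 genes was among the 5 nearest of another. The closest pair among them was Rnh1 and Plxnb2, at 0.120, with Plxnb2 ranked 495 for Rnh1. Ang was at 0.193 from Rnh1 and at 0.218 from Rnase4. This measure compares differences and not levels, so for Ang and Rnase4 it includes the effect of the added 1 given above.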

How the data were processed

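Myocardial RNA of 4 sham-operated and 3 MI mice was sequenced, with groups as labelled. FPKM values for 56980 genes were deposited. The submitters' processing notes name CASAVA 1.8, HISAT2, SAMtools 1.3.1, edgeR and mm10, and the counting program, annotation and use of strand are not given in the sources used here. Fragments, and with them depth and counting error, were recovered from the steps of the values for 30324 of 30504 genes above 0, within 0.05 of a whole number. GENCODE M21 held 91.5% of the identifiers. For 92.6% of genes with several transcripts the length behind the FPKM exceeded the merged exons, which affects levels between genes but not ratios between mice.

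Genes at an FPKM of 1 or more in 3 or more mice (11431) were tested with limma 3.58.1 (R 4.3.3) on log2(FPKM + 1) with an intensity trend, against sham, at a Benjamini-Hochberg adjusted p of 0.05, and single genes and ratios by exact permutation. The fit and the recovery were tested on simulated data. The genes named are the 4 genes, 8 pathway lists, neighbours within 300 kb and the 5 nearest patterns of each gene. Some of these genes are not reported here. Members and lists were chosen with earlier results of these data known, and the ratio without a pseudocount was added after seeing the data. Same-numbered mice did not deviate together, so no pairing was used. All 4 genes matched RefSeq promoter windows.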

Additional observations from a re-analysis of the deposited data

Results flagged for a closer look

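In 1 of 21 sets of sham-operated values tested for a mouse far from the others, a mouse stood apart. The summed FPKM of the eosinophil markers was 0 in sham replicate 3 and 0.106 to 0.119 in the other 3, so that the gap made up 0.891 of the range. At this threshold about 1 in 20 such sets passes by chance, which is 1.05 of 21. The level amounts to few fragments.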

How the results depend on the processing

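Ang, Rnase4, Rnh1 and Plxnb2 were higher in the MI mice under all 17 alternatives, and 15 of them left the call of each gene as it was. The exceptions were leaving out MI replicate 2 and sample weights. With sample weights the differences were 1.20 for Ang (limma adjusted p = 5.36e-08), 1.72 for Rnase4 (3.74e-08), 0.93 for Rnh1 (2.14e-07) and 0.76 for Plxnb2 (3.26e-07), but MI replicate 3 took a weight of 437 against 0.0906 and 0.0217 for the other MI mice, so that 1 mouse decided these values. Over the mice left out in turn the differences were 0.71 to 1.29 for Ang, 1.05 to 1.77 for Rnase4, 0.41 to 0.95 for Rnh1 and 0.34 to 0.79 for Plxnb2, each highest without MI replicate 2.

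The counts of called genes, 2 higher and 1 lower of 11431, moved with most settings. They were 2 and 0 after rescaling to TPM (4702 at an unadjusted limma p under 0.05), 0 and 0 with a filter on the mean (4740 unadjusted), 6 and 2 with median log-ratio scaling, 20 higher without a filter, 5 higher with a pseudocount of 0.1, 7 and 2 with quantile normalization, 1 higher with voom and 7636 and 2316 with sample weights. Leaving out 1 mouse gave 0 to 6512 higher and 0 to 1683 lower (1487 to 8492 unadjusted), the most without MI replicate 2. The cause was not tested.

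Same-numbered mice correlated at 0.074, -0.016 and -0.080 in their deviations, within the range of -0.091 to 0.081 of mice with unlike numbers. Whether same-numbered mice were handled together was not tested. A replicate block gave 0 higher and 0 lower (2332 unadjusted in limma) and differences of 0.96, 1.33, 0.56 and 0.51 for Ang, Rnase4, Rnh1 and Plxnb2, without a change of call.

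The 6 within-heart differences kept their direction under their 9 alternatives, with adjusted exact permutation p of 0.0857 to 0.857, and with 1 exception under a setting that joins 2 of them. That of Ang and Rnase4 fell to almost 0 without a pseudocount, and with MI replicate 2 also left out, a setting chosen after seeing the data, it turned to 0.0145 (adjusted exact permutation p = 0.933) while the other 5 kept their direction. With the share of splits doubled, as was done here, no exact p of 4 against 3 mice can pass 0.05. The depth limits Ang most.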
